A study of Mus musculus with 89 samples.

Results

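The genes of the proteasome were followed across single cells of the mouse dentate gyrus. They were taken by name: every gene whose symbol begins with Psm, a letter from a to g and a digit, leaving out pseudogenes. The rule found 50 of the 24411 genes in the deposited tables. Of these, 49 encode subunits, regulators or assembly factors of the proteasome: 19 genes of the 20S core (Psma and Psmb), 20 of the regulatory particle (Psmc and Psmd), 5 activators (Psme), 1 inhibitor (Psmf1) and 4 assembly factors (Psmg). The remaining gene, Psmc3ip, shares only the name. It encodes a partner of the meiotic recombination machinery, was read in 9 of 60 quiescent and 5 of 11 progenitor cells, and enters no count below. The label therefore fits 49 of the 50 genes. The parts follow the gene names, so the chaperones of the regulatory base, Psmd5, Psmd9 and Psmd10, are counted with the regulatory particle. Assembly factors below are the Psmg genes only.

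The cells came from dentate gyri of homozygous Nestin:CFPnuc mice on a C57BL/6 background, in which regulatory sequence of the Nestin gene drives a nuclear cyan fluorescent protein. Of the 89 cells, 48 came from the age of 2 months and 41 from that of 4.5 months, all sorted by flow cytometry as single living cells and amplified separately. No treatment was given and every mouse carried the reporter. A deposited table gave a class to each cell: 60 qNSC, 18 aNSC and 11 IPC, read here as quiescent neural stem cells, activated neural stem cells and intermediate progenitor cells. The table also gave colours to the qNSC cells, 25 green, 26 red and 9 blue, whose meaning is not stated. No label names the animal of a cell, so each age is 1 sample. For that reason no test between groups was run, and every difference below is a description of these cells with its spread over cells. How the classes and colours were drawn is not stated either. Had the same expression values been used for that, part of each difference between groups would follow from the grouping.

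The proteasome is the main protease of the cytosol and nucleus. Its barrel-shaped core holds the proteolytic sites inside a chamber, and the regulatory particle at its ends recognises ubiquitin-tagged proteins, removes the tag, unfolds the substrate with a ring of ATPases and feeds it into the core. Other caps open the core without ubiquitin, and dedicated chaperones build it. In neural stem cells, degradation by this route is known to act on cell-cycle and fate regulators.

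Promoter sequences are shown first, for 6 members whose levels are described below and whose 250 bases before an annotated start contain CCGGAAG, a sequence bound by ETS-family factors, on either strand. RefSeq promoters of the build GRCm38.p6 were found for 41 of the 49 genes. The motif was present in 12 of these 41 (29.3%) and in 7.83% of the 27025 genes in the same table. A gene was counted when any of its promoters held the motif. Psma6 has a further promoter at the start of the gene (chr12:55383972-55384271) without the motif, and its stretch below comes from a start farther downstream. The promoters of members were also richer in CpG pairs, with a median of 14 against 6 per 250 bases, and the part of base composition in the motif's share was not tested. The CCAAT box was found in 34.1% of the member genes and 37.5% of all genes, and TGACNNNGC, the core of the element bound by Nfe2l1 and Nfe2l2, in 12.2% and 11.5%. A match is a description of the letters in this window, not a measured binding site. Each line gives up to 30 bases on either side, ending at the start site at the latest, 5′ to 3′ on the gene's strand, with the motif or its reverse complement CTTCCGG in capitals.
Psmd6 (chr14:14120954-14121020, minus strand): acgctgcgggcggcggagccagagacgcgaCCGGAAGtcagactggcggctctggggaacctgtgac
Psmd12 (chr11:107479481-107479527, plus strand): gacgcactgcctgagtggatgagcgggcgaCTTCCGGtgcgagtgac
Psmg1 (chr16:95990993-95991059, minus strand): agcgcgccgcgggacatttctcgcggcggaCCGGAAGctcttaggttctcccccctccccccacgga
Psma6 (chr12:55398663-55398729, plus strand): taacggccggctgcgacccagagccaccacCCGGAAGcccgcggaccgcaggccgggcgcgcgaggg
Psmd4 (chr3:95042703-95042769, minus strand): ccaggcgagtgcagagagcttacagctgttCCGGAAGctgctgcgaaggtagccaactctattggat
Psme3 (chr11:101316076-101316142, plus strand): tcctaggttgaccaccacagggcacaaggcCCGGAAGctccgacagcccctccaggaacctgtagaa

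The depth per cell was 234608 to 1896075 counts (median 912394), spread over 2156 to 6046 genes. Of the aNSC cells, 7 had 531 to 3057 reads of Pdgfra, the growth factor receptor of oligodendrocyte precursors, and at least 4 of 8 precursor markers at 10 or more reads. No other cell had more than 1 read of Pdgfra, so the 7 cells were kept apart as aNSC with Pdgfra and the other 11 as aNSC without Pdgfra. By fixed marker lists judged in the same way, 1 of these 11 cells carried endothelial and mural markers and was kept. The quiescent stem cell list was carried by all 11 and by 9 of 11 IPC. The activated progenitor list was carried by 1 of the 11 and by 8 of 11 IPC, so the name aNSC rests on the deposited class. Y-linked genes reached 10 reads in 38 of the 48 cells from 2 months and in none of the 41 from 4.5 months, while Xist or Tsix did so in none of the former and in 37 of the latter. Age and sex therefore cannot be told apart. Levels are log2(CPM + 1), where CPM is the count scaled to 1000000 counts of the cell.

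Of the 49 genes, 47 were detected (1 read or more) in 10% of the 89 cells or more, against 9989 of all 24411 genes. The exceptions are the germline and thymus forms of the core: Psma8, the alpha subunit of testis, had a read in 1 cell, and Psmb11, the catalytic subunit of thymic epithelium, in 0 of 89, which allows a share of up to 3.37%. Levels between genes can be set side by side in TPM, which is scaled by gene length. In qNSC the highest mean TPM in the core was that of Psmb3 (663 TPM), a structural beta subunit. In aNSC without Pdgfra and in IPC it was that of Psmb2, another structural beta subunit (1181 and 1391 TPM), and in aNSC with Pdgfra that of the catalytic Psmb5 (801 TPM). The median of the 19 mean TPM values of the core was 269 in qNSC and 539 in IPC. For the 20 regulatory genes it was 132 in qNSC and 266 in IPC, with the ATPase Psmc5 highest in qNSC (253 TPM) and the ATPase Psmc1 highest in IPC (574 TPM). The base chaperone Psmd9 was the lowest regulatory gene in every class (29.04 TPM in qNSC, 56.2 TPM in IPC). Assembly factors ran from Psmg3 (50.6 TPM in qNSC) to Psmg2 (217.5 TPM in qNSC), the partner of Psmg1 in the first assembly chaperone.

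The catalytic subunits of the standard core were unequal in level. Psmb6, with caspase-like activity, had a mean of 577 TPM in qNSC, and Psmb5, with chymotrypsin-like activity, 427 TPM. Psmb7, the trypsin-like subunit, had 112 TPM there. Their order was Psmb6, Psmb5, Psmb7 in qNSC, aNSC without Pdgfra and IPC, while in aNSC with Pdgfra Psmb5 (801 TPM) stood slightly above Psmb6 (779 TPM). Of the immune-type counterparts, which replace these subunits where interferon acts, Psmb8 and Psmb9 were seldom read. Psmb8 had a read in 10 of 89 cells (11.2%, exact 95% interval 5.52 to 19.7) and Psmb9 in 9 (10.1%, 4.73 to 18.3). Psmb10 was read in 36 cells (40.4%, 30.2 to 51.4), among them 26 of 60 qNSC and 6 of 11 IPC. Psmb9 had no read in the 11 aNSC without Pdgfra, which allows a share of up to 27.3%, and Psmb8 none in the 7 aNSC with Pdgfra, which allows up to 42.9%.

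Among the activators, Psme2 was the highest, with 203 TPM in qNSC and 298 TPM in IPC; it forms a ring with Psme1 (157 TPM in qNSC and 276 TPM in IPC). Psme3, which forms the nuclear activator, had 33.5 TPM in qNSC, and Psme4, a single large nuclear cap, 2.17 TPM. Psme2b is a near-identical copy of Psme2, so that its reads (3.26 TPM in qNSC) cannot be assigned with certainty. The inhibitor Psmf1 had 33.5 TPM in qNSC and 19.6 TPM in IPC.

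**Figure D1:**
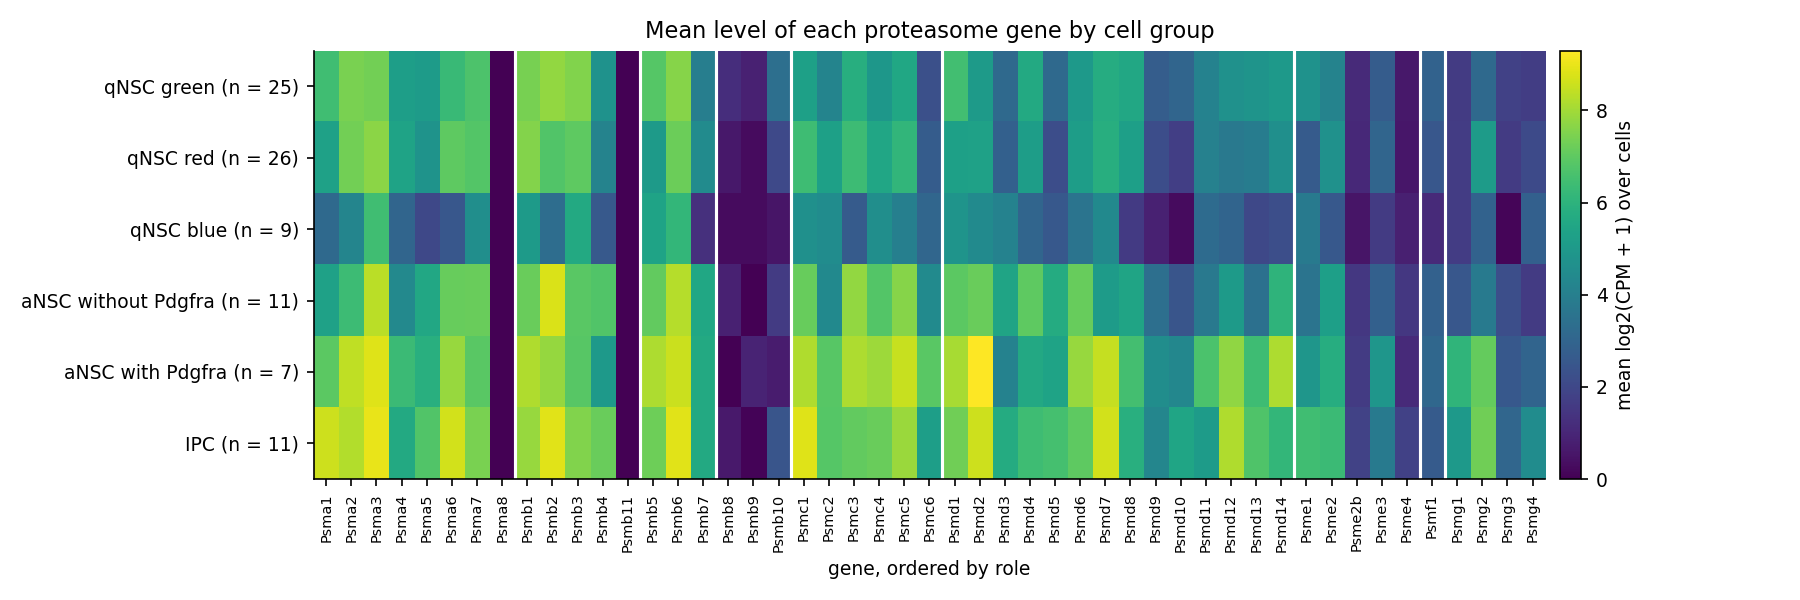
Mean log2(CPM + 1) over cells (colour scale) of the 49 proteasome genes (columns, ordered by role, with white lines between roles) in 6 groups of cells (rows). Most core and ATPase columns are bright in IPC and aNSC with Pdgfra. In blue qNSC the 15 core genes tested and 5 of the 6 ATPases are lower than in the other qNSC. Psma8, Psmb8, Psmb9 and Psmb11 are dark in every row.

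A proteasome score was formed for each cell as the mean log2(CPM + 1) of the 47 genes. In qNSC it ran from 1.33 through a median of 4.43 to 5.91, in aNSC without Pdgfra from 3.68 through 5.09 to 6.23, in aNSC with Pdgfra from 5.08 through 6.05 to 6.94 and in IPC from 5.02 through 6.33 to 6.90. The means were 4.21 ± 1.05 (SD over 60 cells), 5.05 ± 0.73 (11 cells), 6.02 ± 0.69 (7 cells) and 6.14 ± 0.72 (11 cells). The ranges of all 4 groups overlapped. The same mean over all 9989 genes read in 10% of cells was 2.17 in qNSC, 2.72 in aNSC without Pdgfra, 3.01 in aNSC with Pdgfra and 2.78 in IPC. Between aNSC without Pdgfra and IPC it was thus nearly level, while the proteasome score was 1.09 higher in IPC.

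The summed TPM of the proteasome genes gave the classes the same order. It had a median of 9252 in qNSC (2902 to 15419), 12470 in aNSC without Pdgfra (8699 to 14211), 14501 in aNSC with Pdgfra (13876 to 16642) and 16106 in IPC (11762 to 21411). The median cell had a read of 29, 32, 40 and 39 of the 49 genes in these groups, beside 3713.5, 4145, 4999 and 4647 genes of any kind. After every cell was thinned to 445311 counts, leaving out 9 shallower cells (5 qNSC, 3 aNSC without Pdgfra and 1 IPC), the medians were 29, 31, 38 and 38 proteasome genes. The number of genes read in a cell moved with the score: over the 60 qNSC cells Pearson's r was 0.54 and Spearman's rho 0.53, and r was 0.47 without the 2 cells farthest from the median. With summed TPM r was 0.06 in qNSC. Over all 89 cells r was 0.70 with the score and 0.42 with summed TPM. These correlations are descriptions over cells of the same libraries, and the part of detection in the score was not tested.

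**Figure D2:**
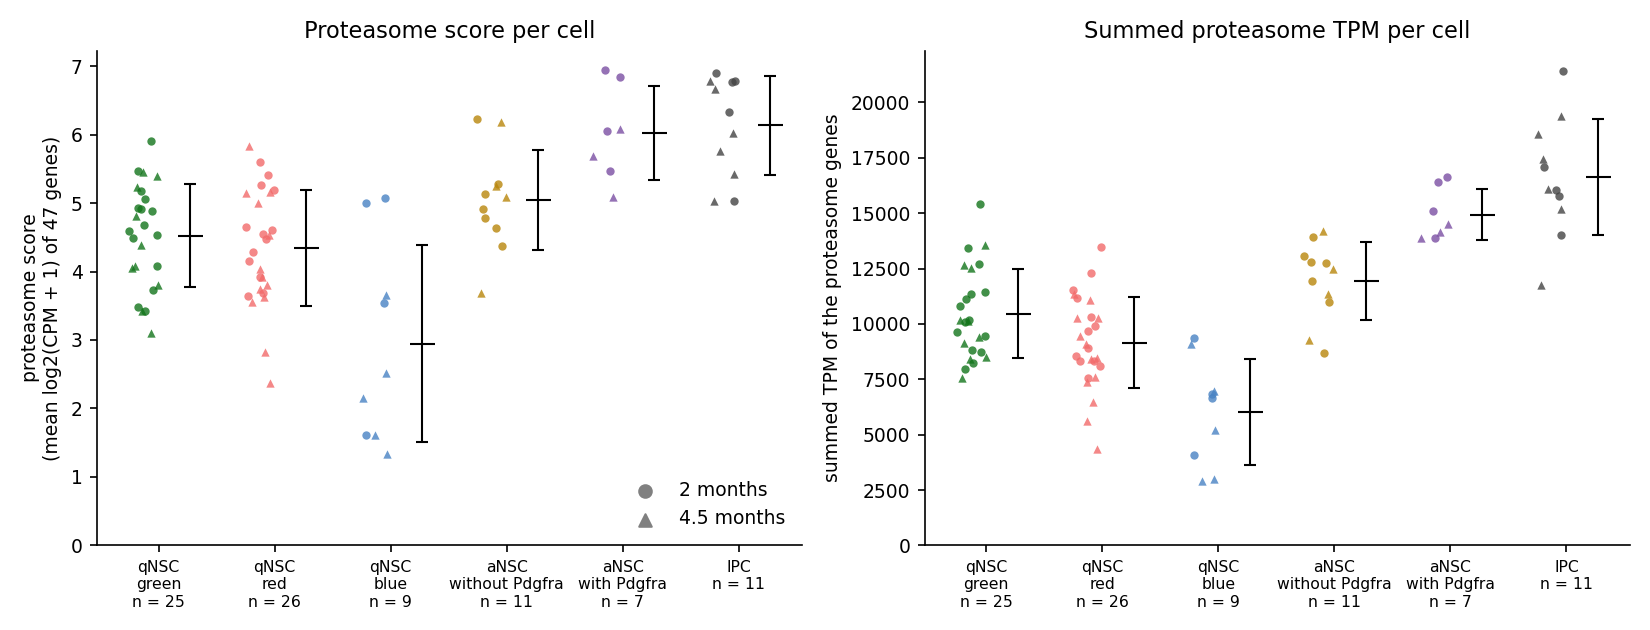
Proteasome score (left, mean log2(CPM + 1) of 47 genes) and summed TPM of the proteasome genes (right) for each of the 89 cells, as circles at 2 months and triangles at 4.5 months; black bars are the mean and SD over cells. In summed TPM the 7 aNSC with Pdgfra lie between 13876 and 16642 and the 11 IPC between 11762 and 21411, while blue qNSC cells do not exceed 9381.

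For each comparison a gene was counted as tested when 20% or more of the cells in either group had a read of it. It was called when its mean log2(CPM + 1) differed by at least 1, its summed CPM (counts of all cells of a group together) by at least 2-fold and its share of cells with a read by at least 15 percentage points, all in 1 direction. The share of all tested genes that the same rule called stands beside the first count of called members in each comparison. Where a difference in score was over 1.5 times smaller with the counts of each group summed before logs, that value is given too.

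Between qNSC and aNSC without Pdgfra, proteasome genes were on the whole higher in the latter, about as often as other genes. Of 45 members tested, 33 were higher in mean level, with a median difference of 1.00; of all 8033 genes tested 73.5% were higher, with a median of 0.70. The rule called 2 members higher and none lower, when it called 16.9% of all genes higher and 3.32% lower. Both called genes were counted by name with the regulatory particle: Psmd5, a chaperone of the ATPase ring, and Psmd6, a scaffold subunit of the lid. The 20 regulatory genes had a median difference of 1.54, with 16 higher, the 15 core genes one of 1.00, with 10 higher, and the 4 assembly factors one of 0.29, with 2 higher. With summed counts the difference in score was 0.21 in place of 0.84, and the median over members 0.24, below the 0.28 of all genes.

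Psmd5 ran from 0 through a median of 0.69 to 582 CPM in the 60 qNSC cells and from 0 through 218 to 466.2 CPM in the 11 aNSC without Pdgfra. On mm10 the gene lies at chr2:34849734-34874968. The groups overlapped, yet the median aNSC cell without Pdgfra was far above the median qNSC cell. Its mean level was 2.66 ± 3.39 and 5.73 ± 3.71 (SD), and its summed CPM was 64.4 (exact Poisson 95% interval 62.3 to 66.5) and 206 (196 to 216). The call held when each of the 71 cells was left out in turn. Psmd6 ran from 0 through 149 to 647 CPM in qNSC and from 0 through 214 to 698 CPM in aNSC without Pdgfra. Its mean level was 4.87 ± 3.70 and 7.14 ± 2.90, and its ratio of summed CPM was 2.07. That call was lost when any of 18 of the 71 cells was left out, with a ratio down to 1.79.

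The other members fixed by role were not called. All 3 standard catalytic subunits were higher in mean level in aNSC without Pdgfra, Psmb5 by 1.19, Psmb6 by 1.04 and Psmb7 by 1.76. Of the 6 ATPases, 5 were higher, by 1.45 to 2.18, and Psmc2 had a difference of -0.29. The ubiquitin receptors Psmd2 and Psmd4 differed by 2.09 and 1.93, and the deubiquitinase Psmd14, which removes ubiquitin chains before a substrate enters the core, by 1.62. Psmb2 was read in all 11 aNSC without Pdgfra at 128 to 755 CPM (median 469 CPM) and in 53 of 60 qNSC at 0 to 694 CPM (median 236 CPM), with groups that overlapped.

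Between aNSC without Pdgfra and IPC the proteasome genes stood higher in the progenitors while genes in general were balanced. Of 45 members tested 41 were higher in IPC, with a median difference of 0.81, beside 53.9% of all 8787 genes tested and a median of 0.20. All 15 core genes were higher, by 0.09 to 3.25. The rule called 7 members higher and none lower, beside 19.3% of all genes called higher and 18.1% lower. A share of 7 in 45 is close to that background, so that the calls themselves do not set the members apart. The called genes were the lid subunits Psmd7, Psmd12 and Psmd13, the base chaperone Psmd10 and the core assembly factors Psmg1, Psmg2 and Psmg4. The 4 assembly factors had the highest median difference of the 4 parts (2.71), and the core one of 0.63. With summed counts the difference in score was 0.49 in place of 1.09.

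Psmd7 (chr8:107580381-107588464), the lid subunit that pairs with the deubiquitinase Psmd14, was read in 8 of 11 aNSC without Pdgfra and in all 11 IPC. It ran from 0 through 131 to 474 CPM in the former and from 201 through 407 to 748 CPM in the latter, and the groups overlapped. Its mean level was 5.09 ± 3.69 and 8.66 ± 0.57, and its summed CPM 165 (156 to 174) and 456 (443 to 470). The spread over cells was thus far smaller in IPC, where no cell lacked a read. The call was kept under 11 of 12 alternative settings and when each cell was left out in turn, and it was lost against all 18 aNSC cells.

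Psmd12, a lid scaffold subunit, ran from 0 through 112 to 509 CPM in aNSC without Pdgfra and from 103 through 294 to 642 CPM in IPC. Its mean level was 5.05 ± 3.55 and 8.19 ± 0.90, with overlapping groups and a ratio of summed CPM of 2.20. Psmd13, another lid subunit, was read in 5 of 11 and 11 of 11 cells, with means of 3.42 ± 3.94 and 6.75 ± 2.23. It shares 342 exonic bases with Sirt3 on the opposite strand, and as the library kit does not record strand its reads cannot be told from those of Sirt3 there. Psmd12 lost its call without any of 4 of the 22 cells and Psmd13 without either of 2.

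Psmg2 had the narrowest spread of all called members in IPC. It ran from 0 through 20.1 to 659 CPM in aNSC without Pdgfra and from 71.4 through 180.5 to 217 CPM in IPC. The highest cell of both groups was thus an aNSC cell, while no IPC lacked a read of Psmg2. Its means were 3.80 ± 3.85 and 7.27 ± 0.47. Psmg1 was read in 4 of 11 and 8 of 11 cells, with means of 2.53 ± 3.54 and 5.04 ± 3.34 and a ratio of summed CPM of 2.68. Psmg4, of the second assembly chaperone, was read in 3 and 9 cells (1.62 ± 2.81 and 4.52 ± 2.44), and its ratio of 2.06 fell below 2 in 11 of 22 leave-outs or lost another criterion. Psmg3 was not called, with 4 and 5 cells. Psmd10 was read in 5 and 8 cells, with means of 2.45 ± 3.21 and 5.45 ± 3.56, and kept its call without any single cell.

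The catalytic subunits hardly differed between these classes: Psmb5 by 0.19, Psmb6 by 0.62 and Psmb7 by 0.09 in mean log2(CPM + 1). These are smaller than the SD over cells of each gene in either group. Psmd14 differed by 0.12, Psmd4 by -0.60 and Psmd2 by 1.41. When all 18 aNSC cells were used instead of the 11 without Pdgfra, 1 member in place of 7 was called higher in IPC, beside 13.5% of all genes higher and 18.3% lower. That member was Psmd10, and the difference in score was 0.71 in place of 1.09.

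The 7 aNSC with Pdgfra also carried more proteasome reads than the other 11 aNSC, with which IPC was compared above, so that the 2 comparisons share those cells. Of 45 members tested 36 were higher, with a median difference of 1.06, beside 60.7% of 9574 genes and a median of 0.47. The rule called 4 members higher and none lower, beside 22.7% of all genes higher and 13% lower. They were Psmd7 (8.46 ± 0.85, against 5.09 ± 3.69), Psmd13 (6.42 ± 3.03, against 3.42 ± 3.94), Psmg1 (6.07 ± 2.75, against 2.53 ± 3.54) and Psmg2 (7.08 ± 1.48, against 3.80 ± 3.85). Psmd7 ran from 181 through 357 to 1069 CPM, and without the cell at 1069 CPM its ratio of summed CPM of 2.65 was 1.80 and the call was lost. Psmd2, the ubiquitin receptor, was read in all 7 cells at 387 to 1240 CPM (median 603 CPM) and reached 0 to 514 CPM (median 305 CPM) in the other aNSC, with overlap and no call. The median difference was 1.15 in the regulatory particle and 0.32 in the core. These cells also had more genes with a read (median 4999 against 4145), and the part of that in the difference was not tested. Summing the counts of each group before taking logs reduced the difference in score from 0.98 to 0.17 and the median over members from 1.06 to 0.24, beside 0.17 over all genes.

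**Figure D3:**
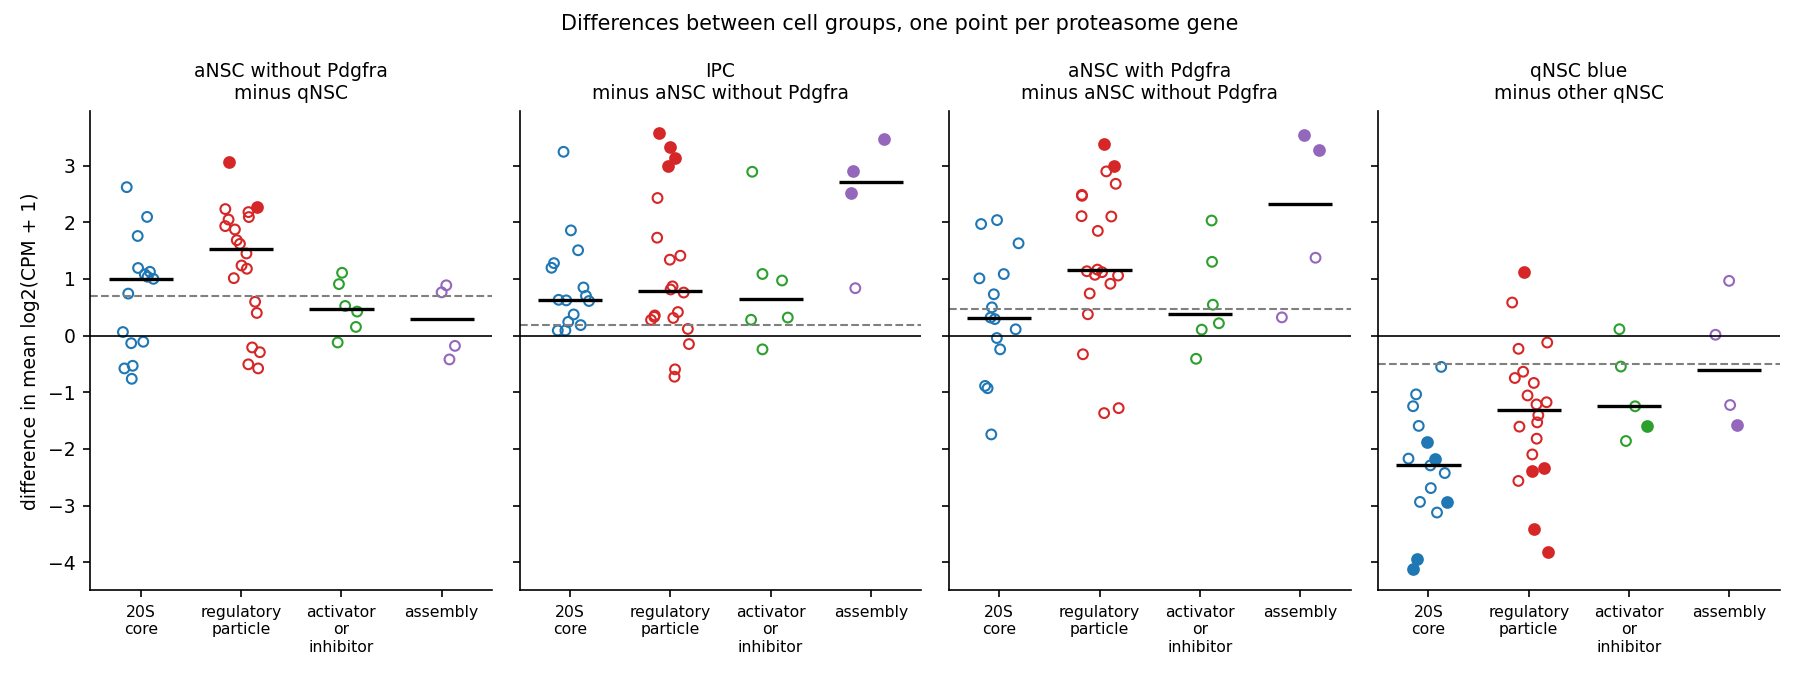
Difference in mean log2(CPM + 1) between groups of cells for each proteasome gene tested, by part of the complex; filled points were called, black bars are medians of the part, and the dashed line is the median of all genes tested. In IPC against aNSC without Pdgfra the 15 core points lie above 0 and 3 of 4 assembly points are filled, and in blue against other qNSC the 15 core points lie below 0.

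**Figure D4:**
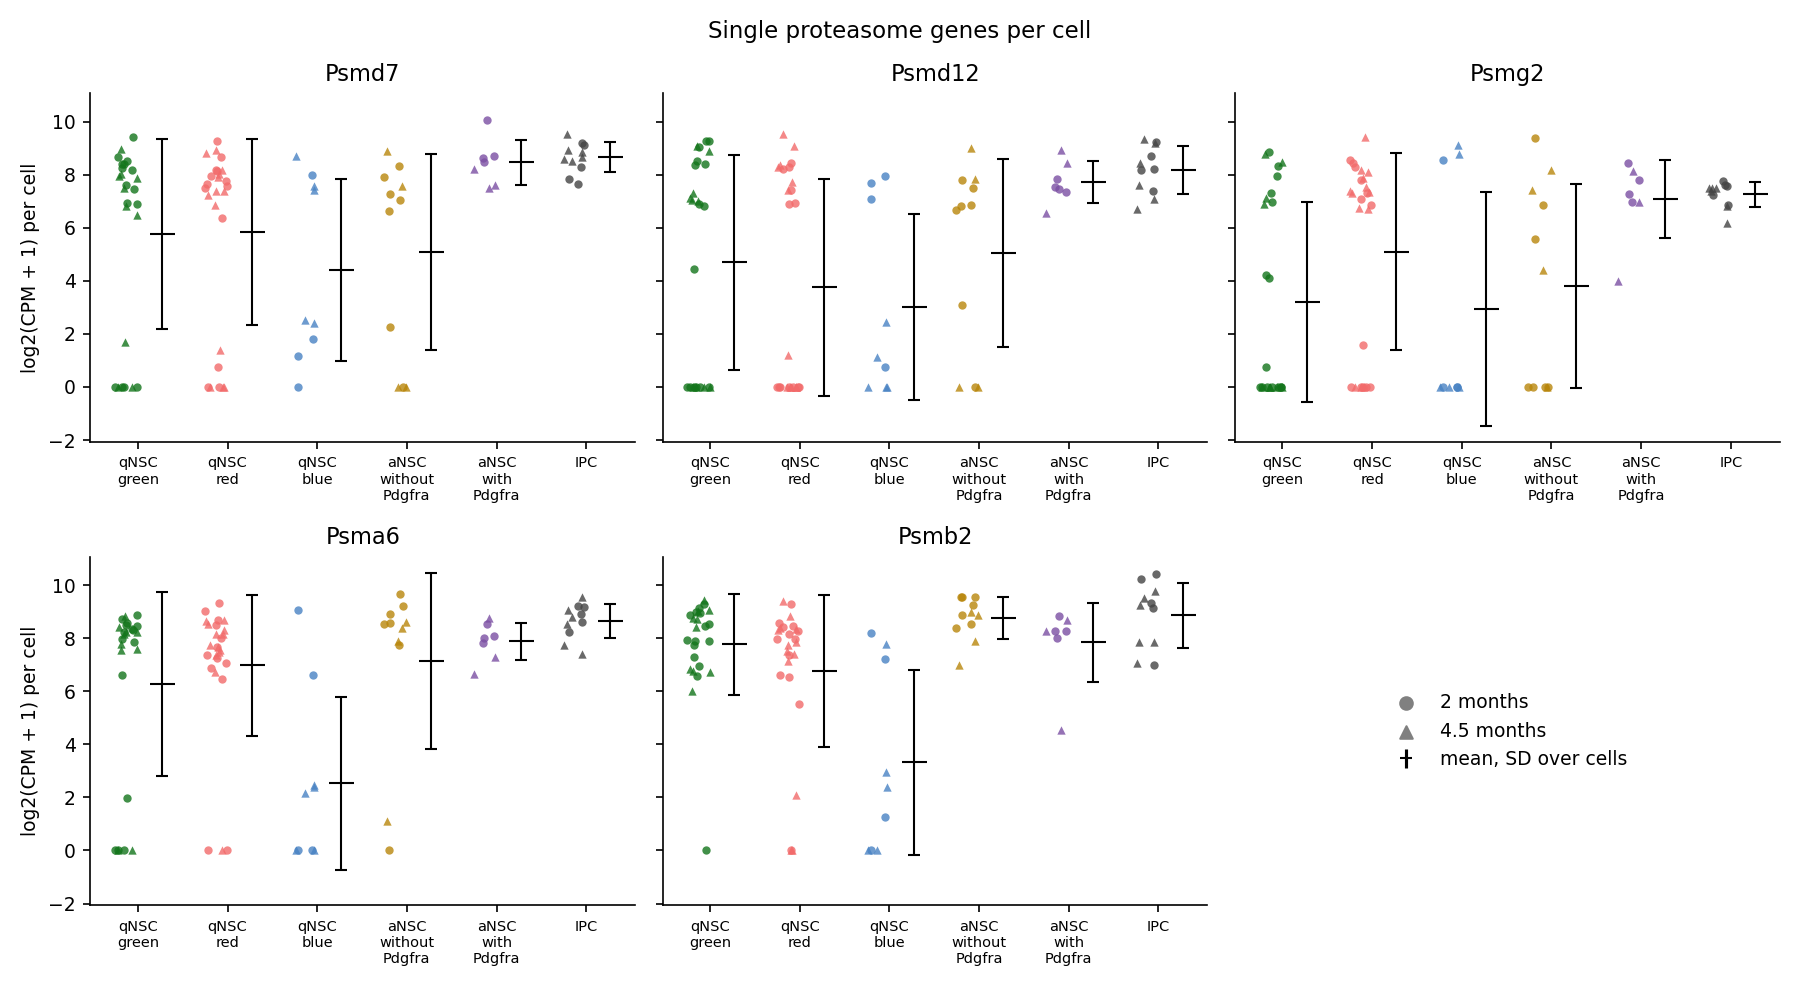
Levels of Psmd7, Psmd12, Psmg2, Psma6 and Psmb2 in each cell as log2(CPM + 1), circles at 2 months and triangles at 4.5 months, with the mean and SD over cells in black. Psmd7, Psmd12 and Psmg2 split into cells at or near 0 and cells far above it in qNSC and aNSC without Pdgfra, while all 11 IPC are in the upper set.

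The weight of the regulatory particle within the 26S proteasome (core plus regulatory genes) was compared in TPM. The regulatory genes made up a median of 33.4% of that sum in qNSC (12.2 to 63.1%), 37.6% in aNSC without Pdgfra (25.4 to 42.8%), 41.1% in aNSC with Pdgfra (35.3 to 57.4%) and 37.4% in IPC (29.1 to 51.7%). All 4 ranges overlapped. Over the 60 qNSC cells the scores of core and regulatory genes moved together, with Pearson's r 0.65 and Spearman's rho 0.60, and over the 51 cells that are not blue r was 0.45. Both scores share each cell's depth and detection.

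Within qNSC the 9 blue cells had lower mean levels of the complex, in particular of the core. Their score ran from 1.33 through 2.52 to 5.07, and that of the other 51 qNSC from 2.37 through 4.53 to 5.91, with means of 2.94 ± 1.44 and 4.43 ± 0.80. The ranges overlapped. Blue cells of 2 months ran from 1.61 to 5.07 (4 cells) and those of 4.5 months from 1.33 to 3.65 (5 cells). Of 44 members tested 39 were lower in blue cells, with a median difference of -1.59, beside a median of -0.51 over 7705 genes, of which 33.1% were higher. All 15 core genes were lower in mean log2(CPM + 1) (median -2.29). In mean TPM the median of the core genes was 82.7 in blue cells and 303 in the other qNSC. The highest core gene in blue cells was Psmb6, at 621 TPM, so the low level did not extend to every core gene in that measure. The rule called 11 members lower and 1 higher, beside 15.7% of all genes lower and 4.19% higher. Blue cells had fewer genes with a read (median 3405 against 3724), and 3 of the 9 had too few counts for thinning. Among the 6 blue and 49 other cells that could be thinned the median difference was -1.05, beside -0.36 over all genes. With summed counts 10 of 44 members were higher and the median was -0.65, beside -0.42 over all genes. The part of depth in the rest was not tested. By the fixed marker lists of the oligodendrocyte lineage, microglia, vessels, ependyma and blood, 0 of 9 blue and 4 of 51 other qNSC cells carried another type. Astrocyte markers were carried by all 60, and their summed level was 28759 through 45023 to 64785 CPM in blue and 13429 through 33486 to 58913 CPM in the other cells.

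The largest differences were in Psma6, an alpha-ring subunit, and Psmb2. Psma6 ran from 0 through 3.54 to 530 CPM in blue cells and from 0 through 231 to 648 CPM in the other qNSC. Its means were 2.52 ± 3.26 and 6.64 ± 3.07, and its summed CPM was 72.2 (65.9 to 78.9) and 249 (245 to 254). Psmb2 ran from 0 through 4.26 to 296 CPM in blue cells and from 0 through 251 to 694 CPM in the others, with means of 3.32 ± 3.49 and 7.27 ± 2.47. Both groups overlapped for each gene, but in the median blue cell both were near 4 CPM, which is a handful of reads. The number of members with 10 or more reads showed the same, with a median of 10 in blue cells and 27 in the others, while the number with any read was 26 and 29.

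Next came the lid subunit Psmd8, read in 2 of 9 blue and 37 of 51 other cells (1.59 ± 3.15 against 5.41 ± 3.63), and the ATPase Psmc3, read in 5 and 43 cells (2.68 ± 3.15 against 6.10 ± 3.28). The catalytic Psmb7 was read in 2 and 34 cells (1.29 ± 2.57 against 4.22 ± 3.17), and Psmd4 in 5 and 38 cells (3.03 ± 3.43 against 5.42 ± 3.57). Psmc3 and Psmb7 share 215 and 405 exonic bases with genes on the opposite strand, Slc39a13 and Nek6. Psmb4, Psmb10, Psmd13, Psmf1 and Psmg3 made up the rest of the 11. The other catalytic subunits were closer, Psmb5 differing by -0.55 and Psmb6 by -1.25. The only member called higher, the lid subunit Psmd3 (4.13 ± 4.46 against 3.01 ± 3.64), rested on 1 blue cell at 3478 CPM, without which the ratio of summed CPM was 0.61 in place of 2.04. The call was lost in 15 of the 60 leave-outs, that of this cell among them.

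Green and red qNSC were alike in score (4.52 ± 0.75 and 4.35 ± 0.85). Of 45 members tested 20 were higher in red, with a median difference of -0.04, beside -0.09 over 7613 genes. The 6 ATPases were all higher in red, by 0.44 to 1.12, and 3 of the 14 other regulatory genes were, with a median of -0.41 for the 14; none of these was called. The rule called 1 member lower in red and none higher, beside 7.74% of all genes lower and 4.43% higher. It was Psme1, which forms the ring activator with Psme2 and was read in 16 of 25 green and 12 of 26 red cells. Psme1 ran from 0 through 131 to 336 CPM in green and from 0 through 0 to 193 CPM in red, with means of 4.73 ± 3.66 and 2.65 ± 3.23 and overlapping groups. The call was kept under all 11 alternative settings tried and when each of 51 cells was left out, and its partner Psme2 was not called.

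Between the ages, qNSC cells of all colours together had lower mean proteasome levels at 4.5 months. The score ran from 1.61 through 4.60 to 5.91 at 2 months and from 1.33 through 3.86 to 5.83 at 4.5 months, with means of 4.50 ± 0.84 (32 cells) and 3.88 ± 1.18 (28 cells). Of 44 members tested 6 were higher at 4.5 months, with a median difference of -0.56, beside 39.5% of 7247 genes and a median of -0.22. The regulatory particle had 1 of 20 genes higher and a median of -0.72. The colours did not share this evenly. In green cells 17 of 47 members tested were higher at 4.5 months, with a median of -0.24, beside 49.5% and -0.01 over all genes. Red cells had 19 of 44 members higher and a median of -0.23, beside 45.4% and -0.14, so their members were close to genes in general. The difference in score was -0.25 in green cells (4.62 ± 0.71 and 4.37 ± 0.83) and -0.45 in red cells (4.57 ± 0.64 and 4.12 ± 0.98). It was largest in blue cells, from 3.80 ± 1.62 (4 cells) to 2.25 ± 0.91 (5 cells). Too few counts for thinning were found in 3 of these 5 blue cells at 4.5 months and in 0 of the 4 at 2 months. The mean over all 9989 genes was also lower in blue cells at 4.5 months (1.496, against 2.033 at 2 months). That mean was 2.245 against 2.293 in green cells and 2.170 against 2.284 in red cells. The part of depth in the difference between blue cells was not tested. Over all qNSC the median number of genes with a read was 3848 at 2 months and 3549.5 at 4.5 months. In thinned qNSC cells 16 of 45 members were higher with a median of -0.35, beside -0.10 over all genes. With summed counts the difference in score was -0.24 in place of -0.62 over all qNSC, with a median over members of -0.14 beside -0.08 over all genes, and -0.11 in place of -0.25 in green cells. Age also cannot be told apart from sex or from the animals used.

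Only 1 member passed the rule over all qNSC, in the direction of lower at 4.5 months, beside 5.62% of all genes lower and 2.53% higher. It was Psme3 (chr11:101316213-101323537). Psme3 was read in 19 of 32 cells at 2 months, from 0 through 45.4 to 464 CPM, and in 6 of 28 at 4.5 months, from 0 through 0 to 174 CPM. Its means were 3.91 ± 3.50 and 1.29 ± 2.67, and its summed CPM 80.02 (76.9 to 83.2) and 25.1 (23.2 to 27.2). The highest cells were at 2 months, and the groups overlapped. Psmd4 had the largest difference of any member (6.48 ± 2.84 and 3.44 ± 3.78, a difference of -3.04, with 28 of 32 and 15 of 28 cells) but its summed CPM had a ratio of 0.55 and it was not called.

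Psme3 was followed in each group. In green cells 8 of 15 had a read at 2 months and 2 of 10 later (3.60 ± 3.63 and 1.33 ± 2.82), in red cells in 9 of 13 and 4 of 13 (4.33 ± 3.39 and 1.75 ± 3.04) and in IPC in 4 of 5 and 2 of 6 (5.82 ± 3.41 and 2.14 ± 3.37). It was called lower in these 3 groups, which share no cells, but the green and red cells are most of those behind the call over all qNSC. It was read in 2 of 4 and 0 of 5 blue cells, the latter allowing a share of up to 60%, and in 4 of 4 and 1 of 3 aNSC with Pdgfra. In aNSC without Pdgfra the mean went the other way, with 3 of 7 and 2 of 4 cells (2.48 ± 3.36 and 3.47 ± 4.01). The call in green cells and in IPC was kept when each cell was left out, and in red cells it was lost without 1 cell, with a ratio of summed CPM of 0.53. Of the 44 members tested in all 4 separate age comparisons (green, red, aNSC without Pdgfra, IPC), Psme3 was the 1 called lower in at least 3, and 0 were called higher in as many. Of all 6231 genes tested in all 4, 116 (1.86%) were called lower and 25 (0.40%) higher in at least 3. The 1 of 44 members is 2.27%, close to that 1.86%, so the count does not set the members apart.

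**Figure D5:**
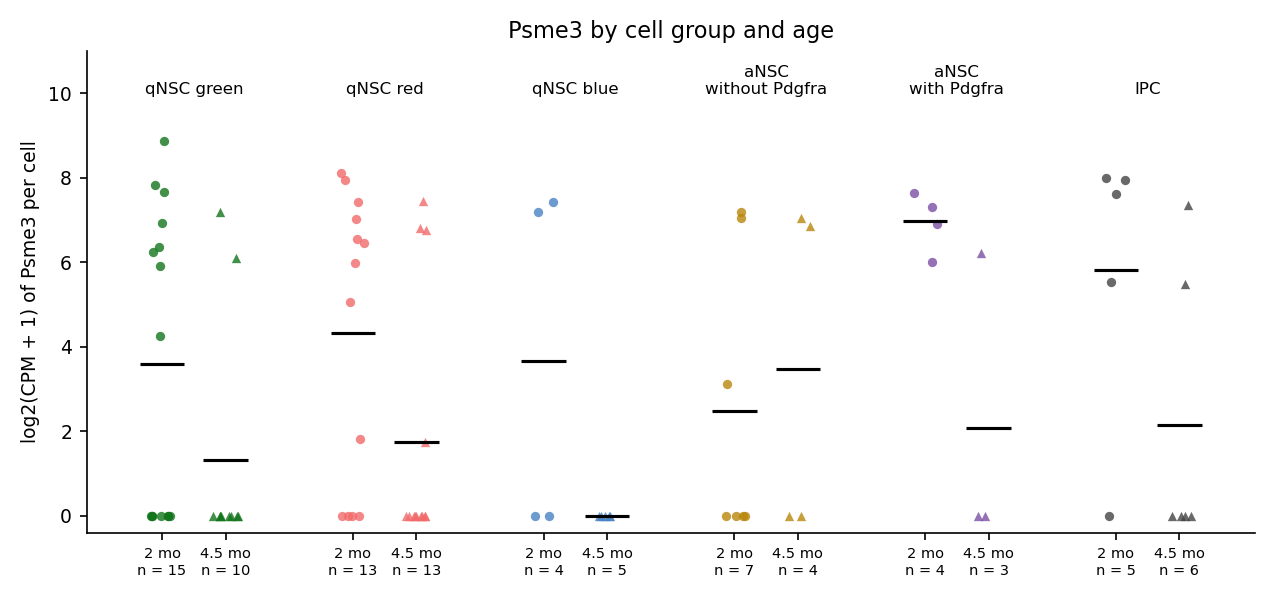
Psme3 in each cell as log2(CPM + 1), by cell group and age, with black lines at the mean over cells. In green, red and blue qNSC, aNSC with Pdgfra and IPC the mean is lower at 4.5 months, and in aNSC without Pdgfra it is higher.

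The remaining age calls were few or rested on few cells. In green qNSC, 3 members were called higher at 4.5 months (Psmb8, Psme2, Psmg1) and 2 lower (Psma5, Psme3), beside 8.79% and 11.6% of all genes. Psma5, an alpha-ring subunit, ran from 0 through 213 to 1108 CPM at 2 months (12 of 15 cells) and from 0 through 0 to 368 CPM at 4.5 months (4 of 10 cells), with means of 6.46 ± 3.47 and 3.09 ± 4.02. The immune-type Psmb8 was read in 1 of 15 and 3 of 10 green cells, too few to describe further. In red qNSC none was called higher and 3 lower (Psma4, Psmd3, Psme3), beside 9.22% and 12.3% of all genes, and each of the 3 was lost without some single cell.

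In aNSC without Pdgfra, with 7 and 4 cells, the mean score was the same at both ages (5.05 ± 0.60 and 5.05 ± 1.03). The rule called 5 members higher at 4.5 months and 8 lower, beside 19.5% and 19.7% of all genes. The largest were Psmg4, read in 0 of 7 and 3 of 4 cells (a mean of 4.45 ± 3.09 in the latter; 0 of 7 allows a share of up to 42.9%), and Psmg1, in 4 of 7 and 0 of 4 (3.97 ± 3.76 in the former; 0 of 4 allows up to 75%). The trypsin-like Psmb7 was read in all 7 cells at 2 months, at 43.7 through 127 to 228 CPM, and in 3 of 4 at 4.5 months, at 0 through 25.8 to 78.9 CPM. The groups overlapped between 43.7 and 78.9 CPM, and the call was lost without 1 of the 11 cells. Psmd5 was read in 6 of 7 and 2 of 4 cells (6.90 ± 3.07 and 3.69 ± 4.27).

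In IPC, with 5 and 6 cells, the score was 6.36 ± 0.78 and 5.95 ± 0.69. With summed counts the difference was -0.13 in place of -0.41. The rule called 2 members higher at 4.5 months and 4 lower, beside 7.95% and 22.8% of all genes. Higher were Psmd5, in 3 of 5 and 6 of 6 cells (4.55 ± 4.17 and 8.21 ± 1.67), and the large nuclear cap Psme4, in 1 of 5 and 3 of 6 (0.68 ± 1.52 and 2.73 ± 3.29). Lower were Psme3, the inhibitor Psmf1, in 4 of 5 and 1 of 6 cells (4.55 ± 3.28 and 1.09 ± 2.66), and the immune-type Psmb8 and Psmb10. Psmd5 thus had its call in opposite directions in IPC and in aNSC without Pdgfra, and whether the age differences of these groups differ was not tested.

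Other genes of the pathway were counted in 8 lists. In aNSC without Pdgfra against qNSC, where 73.5% of all genes were higher and 16.9% were called higher, all 4 genes that encode ubiquitin were higher in mean level and 1 was called, Rps27a (6.52 ± 2.31 against 3.25 ± 3.35). Of 17 tested genes of the APC/C and SCF ligases, which tag cell-cycle proteins, 13 were higher and 5 were called higher, among them the SCF scaffold Cul1, read in 100% and 58.3% of cells (8.26 ± 0.78 against 3.96 ± 3.79). Of 7 tested transcription factor genes of the proteasome list all were higher and 1 was called, Nfe2l1, which drives proteasome genes when degradation is blocked (2.75 ± 3.03 against 0.77 ± 1.95). Other lists had few or no calls. Of the ubiquitin-activating and conjugating enzymes 8 of 15 were higher and none was called, and of the antigen processing genes 4 of 8 were higher and 1 was called. The 13 ubiquitin receptors, shuttles and proteasome-bound enzymes had 10 higher and 1 called, and the 8 genes of the segregase and its adaptors 6 and 1. Both partners of assembly and inhibition that were tested were higher, and neither was called. No gene of the 8 lists was called lower.

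In IPC against aNSC without Pdgfra, 6 of 17 ubiquitin-activating and conjugating enzymes were called higher and none lower, beside 19.3% of all genes higher and 18.1% lower. Among them was Ube2n, in all 11 IPC at 184 through 467 to 882 CPM against 0 through 175 to 579 CPM. Of the 20 APC/C and SCF genes 4 were called higher, of the 13 receptors, shuttles and bound enzymes 2, of the 8 segregase genes 1, of the 3 assembly and inhibitor partners 1 and of the 4 ubiquitin genes 0, with none lower in these lists. Of 7 transcription factor genes 1 was called higher and 2 lower. The latter, Nfe2l1 and Nfe2l2, were called lower also in aNSC with Pdgfra, in a comparison that shares the aNSC without Pdgfra. Nfe2l2, the regulator of the oxidative stress response, was read in 9 of 11 aNSC without Pdgfra (0 through 246 to 670 CPM), 6 of 11 IPC (0 through 0.88 to 261 CPM) and 1 of 7 aNSC with Pdgfra (0 through 0 to 2.77 CPM). Of 8 tested genes of antigen processing, 4 were called lower in IPC and none higher: Tap2, Tapbp, H2-K1 and Erap1. Tapbp, the chaperone that loads peptides on class I molecules, had means of 1.08 ± 2.18 in IPC and 4.40 ± 3.52 in aNSC without Pdgfra.

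In blue against other qNSC, where 15.7% of all genes were called lower, 3 of 13 ubiquitin receptors, shuttles and proteasome-bound enzymes were called lower and none higher. Txnl1, a thioredoxin bound to the regulatory particle, had means of 1.52 ± 2.49 and 4.87 ± 3.61. Of 17 APC/C and SCF genes 4 were called lower and 2 higher, and of 7 antigen processing genes 2 lower. In the enzymes (16 tested) and the segregase list (8 tested) 1 gene each was called lower, and in the other 3 lists none was called.

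Members with and without the ETS motif in their promoter can be set side by side. In IPC against aNSC without Pdgfra the median difference was 1.38 for the 12 with it and 0.72 for the 26 tested without it, and in aNSC with Pdgfra against aNSC without Pdgfra 2.07 and 0.99, 2 comparisons that share the same 11 cells. In blue against other qNSC it was -1.18 for 11 and -1.71 for 26. Between the ages of red qNSC the order was the other way, with -0.82 for 11 and -0.20 for 26, and between those of all qNSC the medians were close (-0.59 and -0.56). The median was higher with the motif in 8 of the 10 comparisons and lower in 2, and several of the 10 share cells. The sign of each comparison depends on which group was subtracted. Genes outside the proteasome were not split by the motif in this way, so the count cannot be called particular to the members. Whether the motif has a part in any difference was not tested. The ranges of both sets overlapped in each comparison.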

How the data were processed

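Single cells were amplified with a full-length template-switching kit at a reduced volume and tagged with Nextera XT, per the labels' protocols. Per the submitters' processing notes the tools were STAR and RSEM and the build mm10, with no role or version. The authors deposited estimated counts per gene and cell, made before deposit with these tools. They also deposited TPM, scaled by gene length, and a table of classes and colours. A share of 4.44% of the non-zero counts was fractional (by over 1e-06), and rounding was used where detection and intervals needed whole reads. Total counts per cell ran from 234608 to 1896075, and 13 of 89 cells had under 500000. No 2 cells held identical values. Promoters came from RefSeq (GRCm38.p6).

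Counts were scaled to CPM and taken as log2(CPM + 1). With 1 sample per age and no animal named, no model was fitted and no p-value is given: SDs are over cells, and exact 95% intervals (Clopper-Pearson for shares, Poisson for sums) cover counting error only, as the libraries hold no molecular identifiers and several reads may come from 1 molecule. Where no cell of a group had a read, the limit given is instead 3 cells as a share of the group. That limit is an approximation, rough in small groups, and not the exact interval. Named are up to 6 called members with the largest difference in each direction of a comparison, members fixed by role (catalytic and immune-type beta subunits, Psmd2, Psmd4, Psmd14, the ATPases, activators, inhibitor and assembly factors) and the highest and lowest in TPM per part. The members, the lists, the split by Pdgfra and the rules were chosen with earlier results of these data known. Alternatives were a pseudocount of 10, the deposited TPM, scaling without the 50 most abundant genes, thinned cells, cells of at least 500000 counts, cells without markers of other types, other detection limits, medians and summed counts. The call rule was also run on simulated data, with changes much larger than its 2-fold limit. That run does not show how the rule performs near the limit. Python 3.11.15, numpy 2.4.6, pandas 2.3.3, scipy 1.17.1 and matplotlib 3.10.9 were used.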

Additional observations from a re-analysis of the deposited data

Results flagged for a closer look

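One cell stood apart in the balance of the complex. Among the 7 aNSC with Pdgfra, the regulatory genes made up 57.4% of the summed TPM of core and regulatory genes in 1 cell of 4.5 months, while the nearest of the other 6 was at 43.99% and the lowest at 35.3%. The gap is 0.61 of the range, above Dixon's 95% critical value for 7 cells. Dixon's test was run 40 times on the groups of 4 to 10 cells, and by chance it picks out about 1 in 20.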

How the results depend on the processing

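Of the recomputed score differences 112 kept their direction and moved by less than 1 SD over cells, 1 moved further and 8 changed sign. With counts summed before logs, aNSC with Pdgfra minus aNSC without Pdgfra was 0.17 in place of 0.98. The age difference in aNSC without Pdgfra, 0.0011 as reported, was below 0 in the deposited TPM (-0.0067), without the 50 most abundant genes in the scaling (-0.037), in thinned cells (-0.028), without cells under 500000 counts (-0.26), with genes read in 50% of cells (-0.025), with summed counts (-0.056), with 10 or more reads (-0.047) and with core and regulatory genes only (-0.13), the last an alternative chosen after seeing the data. With a pseudocount of 10 the score differences were 0.50 in aNSC without Pdgfra against qNSC, 0.60 in aNSC with Pdgfra, -0.96 in blue cells and -0.40 between the qNSC ages. The median over members between the aNSC without Pdgfra ages was 0.32 as reported and -0.09 in thinned cells.

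Of the recomputed counts of called members, 105 higher and 109 lower stayed within 1.5 times, and 16 and 12 did not. In aNSC without Pdgfra against qNSC, 1 was higher without the 50 most abundant genes and 1 with medians, 4 without shallow cells, and 1 was lower without cells of other markers. Against all aNSC cells 1 was higher in IPC, and 1 lower without shallow cells. In aNSC with Pdgfra, 1 was lower in thinned cells and 1 without shallow cells. In red against green, 2 were lower in thinned cells, 2 without cells of other markers and 2 with 10 or more reads. In blue cells, 0 were higher with a pseudocount of 10, with TPM, in thinned cells, without cells of other markers and with 10 or more reads, and 18 were lower with 10 or more reads. At 4.5 months, 1 was higher in qNSC without shallow cells and 1 with 10 or more reads. In green, 1 was higher among genes read in 50% of cells and 4 lower without cells of other markers. In red, 1 was lower with a pseudocount of 10, and 1 was higher with TPM, without shallow cells, without cells of other markers and with 10 or more reads. In aNSC without Pdgfra, 5 were lower without cells of other markers, and in IPC, 2 were lower with a pseudocount of 10. Thinning moved the median of all genes by over 0.1 in blue cells (from -0.51 to -0.36), in the qNSC ages (from -0.22 to -0.10) and in the aNSC without Pdgfra ages (from 0.15 to -0.09).

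When each cell was left out in turn, an alternative chosen after seeing the data, 27 of the 54 calls were kept throughout and 27 were lost without at least 1 cell. In groups of 4 to 11 cells a share of cells has a wide interval, and a member missing from a cell may be below the detection limit of that library. No paired analysis was possible because the labels pair no cells between the ages or the classes.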
